A study of Rattus norvegicus with 18 samples.

Results

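The collagen genes are the genes for the alpha chains of the collagens, chosen here as every gene whose platform symbol is written Col, a type number, the letter a and a chain number. On these arrays 41 such genes were named, of 14217 named genes in all, and 58 probe sets (sets of short probes that measure 1 transcript) reported on them. Of the 41, 27 had a single probe set, and each of the remaining 14 was represented by its brightest one over all 18 arrays. By the kind of structure they build, 11 genes were counted as fibrillar, 7 as basement membrane, 5 as type VI and 18 as other collagens. Col4a3, Col6a4 and Col28a1 were not analysed here.

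Collagen chains wind around each other into a stiff helix inside the endoplasmic reticulum, are secreted, trimmed and cross-linked outside the cell. Fibrillar collagens form the tension-bearing fibres of scar, meninges and vessel walls, type IV collagen forms the sheet on which endothelial cells and astrocyte endfeet rest, and type VI collagen forms beaded filaments around cells. In the central nervous system the fibrillar types are sparse inside the tissue and accumulate in fibrotic scars.

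RNA of rat spinal cord had been measured on 6 Affymetrix arrays of samples given BMP (bone morphogenetic protein, a ligand of the TGF-beta family) at 10 ng/mL, on 6 arrays of samples given CNTF (ciliary neurotrophic factor, a cytokine) at 10 ng/mL, and on 6 control arrays. Both factors carry the entry 4d, taken to mean 4 days, whereas the control labels carry no time, so time and treatment cannot be told apart in a difference against control. Which BMP was used, which cells were treated and how the controls were kept is not given in the sources used here. Every array's description also carries the mark 14 NT, which is not explained there and was not interpreted. Titles number the arrays 1 to 6 in each group, and an array is called here by its group and number. Whether the arrays of 1 group hold separate cultures or animals is not stated, so the p-values rest on array-to-array spread alone, and this may be technical.

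Levels are given as log2(intensity + 116.655), on which the table's median is 9.75 and the lowest possible value 6.87. The deposited intensities had a median between 666.5 and 817.2 on every array, and within each number the BMP array had the highest median. Differences on this scale are limma log2 differences with their standard error over 6 arrays a group, a fold is the ratio that the log2 difference gives, and both understate the change of dim genes. A gene is said to have risen or fallen where limma's p, adjusted by Benjamini-Hochberg over 31042 probe sets, was under 0.05. Same-numbered arrays of different groups deviated together, so the value from a second fit with the number as a replicate block is printed for collagen genes and other named results where it changes the outcome. Levels of different genes were not compared, since probe sets differ in brightness.

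Of the 41 collagen genes, 17 had a mean level at or above the table's median, and 21 lay below it in every group. The spread of a collagen gene over the 18 arrays was split between group, number and the rest as a description. With 6 numbers and 3 groups, number takes the larger share by chance, so the shares of group and number are not directly comparable. Over the 17 brighter collagen genes, the median share that went with the group was 38.7% and the share that went with the number was 39.2%. Over all 8928 named genes at that brightness the medians were 17.6% for the group and 53.2% for the number. Among collagens, group took the most of the spread of Col16a1 (70.4%) and Col5a2 (70.2%), while number took 79.1% of that of Col5a3, 78.7% of that of Col3a1 and 78.5% of that of Col14a1.

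With BMP, 7 of the 41 collagen genes rose and 1 fell relative to control. The genes that rose were the fibrillar chains Col1a2 and Col5a2, the basement membrane chain Col4a5, the type VI chain Col6a2, both chains of type VIII collagen (Col8a1 and Col8a2) and the membrane-bound Col23a1. The gene that fell was Col20a1, a minor fibril-associated collagen. The 7 risen genes are 17.1% of the collagens, beside 4.21% of all named genes called higher, and the 1 fallen gene is 2.44%, beside 3.02% called lower. With the replicate block 16 collagen genes (39%) were called higher and 3 lower, beside 10.7% and 9.28% of all named genes. In 16 collagen genes all 6 same-numbered pairs had the BMP array above the control array, beside 10.9% of named genes. The 16 genes called higher with the block were Col1a1, Col1a2, Col2a1, Col3a1, Col5a2, Col4a2, Col4a5, Col15a1, Col6a1, Col6a2, Col6a6, Col8a1, Col8a2, Col12a1, Col23a1 and Col25a1, and the 3 lower ones were Col9a1, Col16a1 and Col20a1. The count without the block was 5 without array BMP 2 alone, and 5, 3, 5 and 5 without all arrays of number 1, 2, 3 and 5.

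Most collagen genes, called or not, had a positive BMP difference. The median log2 difference over the 41 genes was 0.49, with 32 above 0, and the median over all named genes was 0.005. By class the median was 0.74 for fibrillar, 0.62 for basement membrane, 0.69 for type VI and 0.30 for other collagens. The numbers of genes above 0 were 10 of 11, 5 of 7, 5 of 5 and 12 of 18 in the same classes. The spread within a class was wide, from -0.28 to 2.61 among the fibrillar chains alone.

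**Figure D1:**
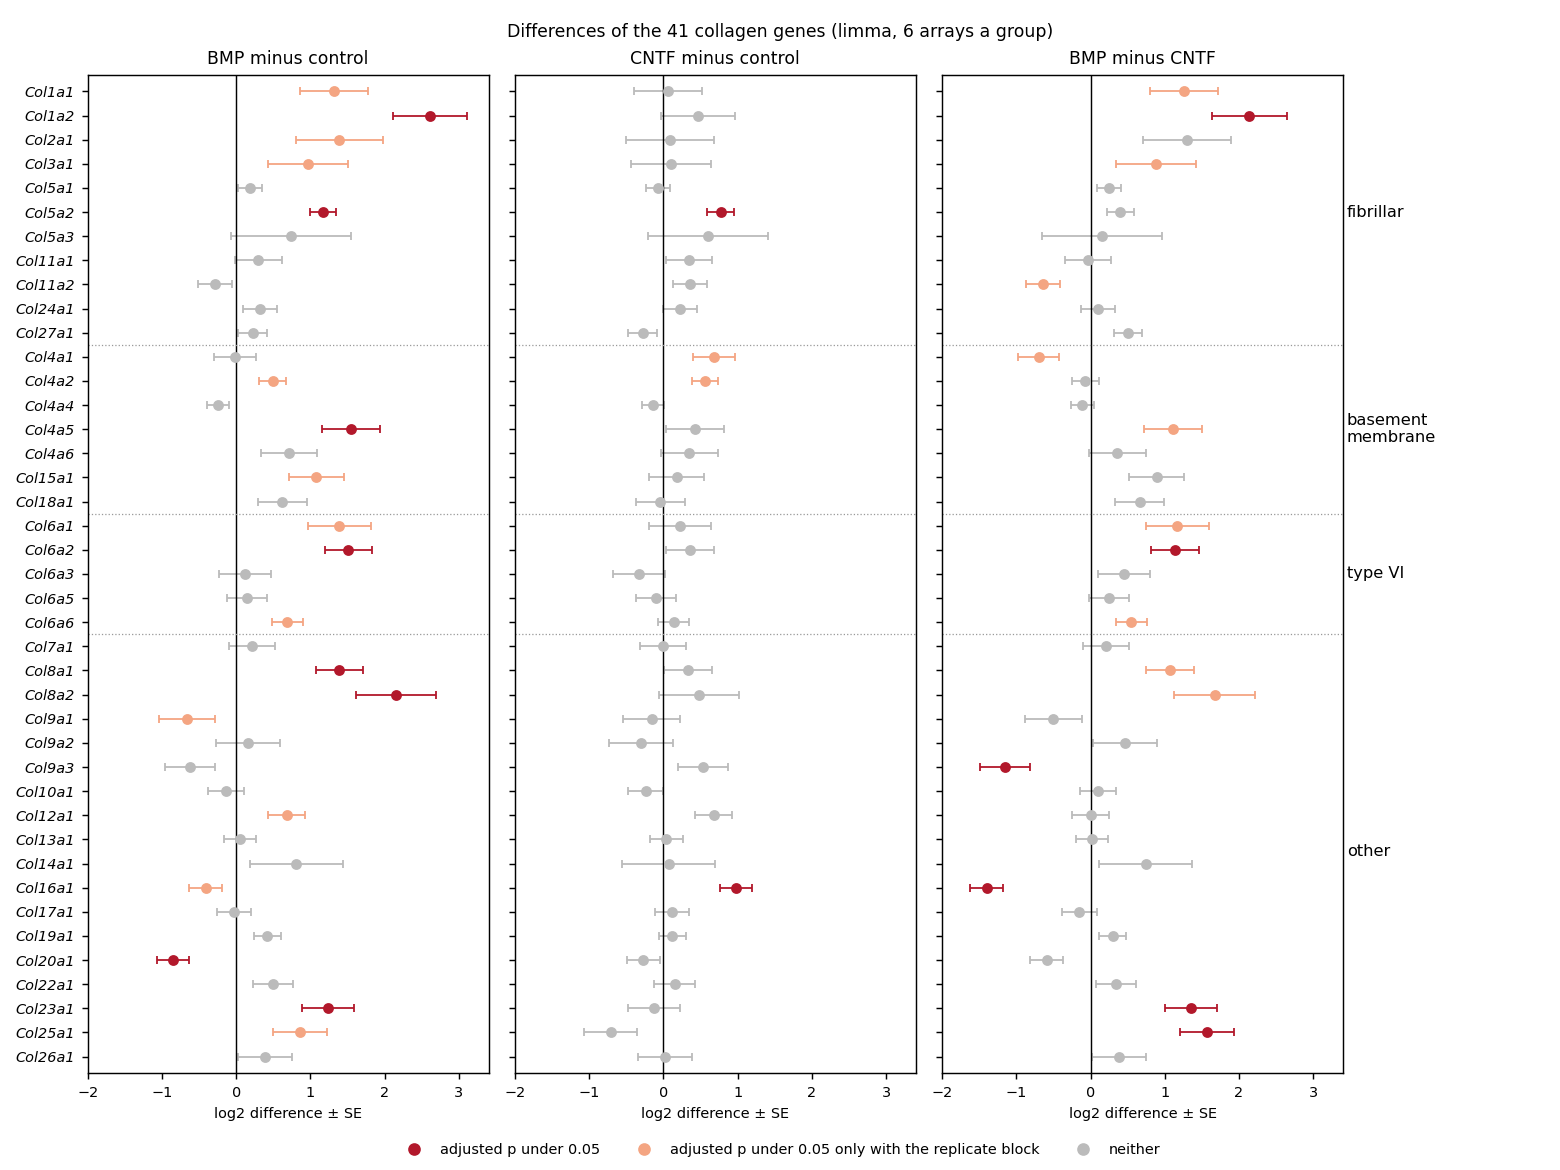
Log2 difference with its standard error (horizontal axes) for each of the 41 collagen genes (vertical axis, by class), for BMP minus control, CNTF minus control and BMP minus CNTF, 6 arrays a group. Dark red marks an adjusted p under 0.05, light red one under 0.05 with the replicate block alone, and grey neither. Most points of the BMP panel lie right of 0, up to 2.61 for Col1a2, and the CNTF panel stays within -0.71 to 0.98.

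Type I collagen, the main collagen of scar and bone, is built of the chains of Col1a1 and Col1a2. Col1a2 was at 11.49 to 14.38 on the BMP arrays (median 12.62), at 8.82 to 11.82 on the CNTF arrays (median 10.89) and at 9.18 to 10.85 on the control arrays (median 10.18). Every BMP array lay above every control array, while the CNTF arrays spread on both sides of the controls. The BMP difference was 2.61 ± 0.50, or 6.09-fold (limma adjusted p = 0.00349), the largest among the 41 genes. A second Col1a2 probe set gave 2.42 (adjusted p = 0.00386).

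The stretch before the Col1a2 start is shown because this gene had the largest change and because the letters CCAAT and TATAAA both occur in the stretch. The line gives bases 250 to 151 before the annotated start (RefSeq, build GRCr8, chr4:33518307-33518406, plus strand), 5′ to 3′. Capitals mark the letters CCAAT read on the opposite strand, whose first base lies 221 bases before the start, and the letters TATAAA at 170 bases. Whether either acts as a promoter element at that distance was not tested.
Col1a2: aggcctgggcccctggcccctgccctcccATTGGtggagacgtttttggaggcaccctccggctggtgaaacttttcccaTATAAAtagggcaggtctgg

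A promoter window of 250 bases before and 50 after the start was on hand for 32 of the 41 collagen genes, and letters were searched on both strands. Collagens were counted by gene and the background by window. CCAAT was found for 9 of these 32 genes, against 37.5% of 33469 windows of all genes, and TATAAA for 4, against 14.2%. The GC box GGGCGG was in 18, against 33.1%, and the GC-rich SMAD element GGCGCC, whose end bases can overlap a GC box, in 4, against 11%. The SMAD palindrome GTCTAGAC was in 0, against 0.197%, the STAT element TTCNNNGAA in 1 (Col6a5), against 8.87%, and the AP-1 element TGANTCA in 1 (Col6a1), against 7.33%. These are matches of letters in a window and describe no binding.

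The partner chain Col1a1 was at 10.33 to 12.76 with BMP (median 11.86), 8.62 to 11.30 with CNTF (median 10.80) and 9.49 to 11.26 in control (median 10.29). The groups overlapped, although the BMP array was the higher one in 6 of 6 same-numbered pairs. The difference of 1.32 ± 0.46 missed the threshold (limma adjusted p = 0.0994) and passed it with the replicate block (adjusted p = 0.00218). Without array BMP 4 it was 1.59 (adjusted p = 0.0391). A second Col1a1 probe set gave 1.58 and was called (adjusted p = 0.0292).

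Col3a1, the chain of type III collagen that accompanies type I in soft tissue, varied more with the number than with the group. It was at 10.85 to 13.20 with BMP (median 12.44), 9.55 to 12.56 with CNTF (median 11.66) and 10.24 to 12.45 in control (median 11.21). The difference against control of 0.97 ± 0.54 was not called (limma adjusted p = 0.361). All 6 pairs had BMP higher, by 0.61, 1.05, 1.53, 0.83, 1.27 and 0.54 in numbers 1 to 6, and the replicate block gave an adjusted p of 0.000264.

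Col5a2, a chain of the type V collagen that starts type I fibrils, was the most even of the risen genes. It was at 13.74 to 14.65 with BMP (median 14.08), 13.20 to 14.06 with CNTF (median 13.79) and 12.30 to 13.41 in control (median 12.92). The BMP and control arrays did not overlap, and the difference was 1.17 ± 0.18, or 2.26-fold (limma adjusted p = 0.00104). Its second probe set gave 1.20 (adjusted p = 0.000407). The partner chain Col5a1 differed by 0.19 ± 0.16 on its brighter probe set (limma adjusted p = 0.615) and by 0.85 on its other one, which was called (adjusted p = 0.0124), so the 2 probe sets of Col5a1 disagreed. Col3a1 and Col5a2 are neighbours in the rat genome. Their differences from control are the 0.97 and 1.17 given above.

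The Col5a2 upstream sequence is shown as that of the collagen called against control with both factors. It covers the 250 bases before the annotated start (RefSeq, GRCr8, chr9:55090152-55090401, minus strand), 5′ to 3′, and has no capitals because none of the motifs named above was found in it.
Col5a2: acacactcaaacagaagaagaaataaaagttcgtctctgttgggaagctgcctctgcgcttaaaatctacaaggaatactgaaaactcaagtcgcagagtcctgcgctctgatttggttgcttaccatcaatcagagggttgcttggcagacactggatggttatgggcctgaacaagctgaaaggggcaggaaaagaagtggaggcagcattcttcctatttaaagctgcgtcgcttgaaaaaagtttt

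The other fibrillar chains were not called against control without the block. The cartilage collagen Col2a1 averaged 10.83 ± 1.85 with BMP and 9.44 ± 0.42 in control (SD, n = 6 each). Its pair differences were 4.61 and 1.81 in numbers 1 and 2 and between 0.19 and 1.01 in the other 4 (limma adjusted p = 0.198, and 0.0412 with the block). The further Col2a1 probe sets gave 0.48 and 0.19. They passed neither without the block (adjusted p = 0.498 and 0.796) nor with it (0.347 and 0.664). Like the brightest Col2a1 set, Col5a3 and Col11a1 had their larger differences in numbers 1 and 2 (2.03 and 1.98 for Col5a3, 0.92 and 1.22 for Col11a1). Over all arrays Col5a3 and Col11a1 differed by 0.74 ± 0.81 and 0.30 ± 0.31 (adjusted p = 0.712 and 0.687). Col11a2, Col24a1 and Col27a1 differed by -0.28, 0.32 and 0.22, with adjusted p between 0.518 and 0.607.

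Among basement membrane chains, Col4a5 rose with BMP. Col4a5 encodes one of the type IV chains that are mutated in Alport syndrome in humans. It was at 11.62 to 13.81 with BMP (median 12.95), 10.72 to 12.76 with CNTF (median 11.89) and 10.60 to 12.20 in control (median 11.25), so the groups overlapped, with the BMP array higher in 6 of 6 pairs. The difference of 1.54 ± 0.39, or 2.91-fold, passed the threshold (limma adjusted p = 0.0227). The call was lost without array BMP 1 (0.0607), BMP 2 (0.0602) or control 4 (0.0521), and without all arrays of number 1 (0.0888), 2 (0.0884), 5 (0.0626) or 6 (0.0599).

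Col4a1 and Col4a2 encode the chains of the most widespread type IV network. Col4a1 was at 11.56 to 12.45 with BMP (median 12.01), 11.84 to 13.65 with CNTF (median 12.81) and 11.40 to 12.90 in control (median 11.89). Col4a2 was at 10.57 to 11.39 with BMP (median 11.04), 10.70 to 11.54 with CNTF (median 11.10) and 10.23 to 10.97 in control (median 10.46). With BMP, Col4a1 differed from control by -0.02 ± 0.28 (limma adjusted p = 0.984), a value whose sign turned when single arrays were left out. Col4a2 differed by 0.49 ± 0.18 (adjusted p = 0.121, and 0.0287 with the replicate block). With CNTF, Col4a1 differed from control by 0.68 ± 0.28 (adjusted p = 0.314) and Col4a2 by 0.56 ± 0.18 (adjusted p = 0.131). Both were higher with CNTF in 6 of 6 pairs and passed with the block (adjusted p = 0.00561 for Col4a1 and 0.0255 for Col4a2). A second Col4a1 probe set gave 0.20 for BMP and 0.72 for CNTF against control, neither called without the block (adjusted p = 0.723 and 0.129), and the CNTF value passed with it (0.00206).

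Col4a1 and Col4a2 are transcribed away from each other out of a shared gap, which is shown because both genes were called higher with CNTF under the replicate block. The gap is 76 bases long (RefSeq, GRCr8, chr16:84885521-84885596, plus strand), and the capitals mark its 1 GC box, read on the opposite strand.
Col4a1/Col4a2: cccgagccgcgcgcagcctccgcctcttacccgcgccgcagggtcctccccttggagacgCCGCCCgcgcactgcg

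Col15a1, a collagen of the zone around basement membranes, averaged 9.30 ± 0.84 with BMP and 8.23 ± 0.59 in control (SD, n = 6 each), with pair differences of 2.32, 2.30, 1.77, 0.84, -0.14 and -0.64 in numbers 1 to 6. It was not called (limma adjusted p = 0.0976), but passed with the block (0.0423), without array BMP 6 (0.0497) and without all arrays of number 6 (0.0457). Its second probe set differed by 0.99 and was called (adjusted p = 0.0257). Col18a1, the source of endostatin, differed by 0.62 ± 0.33 on its brighter probe set (adjusted p = 0.331). Its other probe set gave 1.12, higher in 6 of 6 pairs (adjusted p = 0.0718, and 0.0157 with the block). Col4a6 differed by 0.71 ± 0.38 (adjusted p = 0.336). The Col4a6 difference was 3.25 in the pair of number 1 and between -0.68 and 0.83 in the other 5 pairs. Col4a4 lay at 6.98 ± 0.02 with BMP and 7.23 ± 0.43 in control, close to the lowest possible value.

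Type VI collagen is assembled from the chains of Col6a1 and Col6a2 together with that of Col6a3 or a related chain. Col6a2 rose with BMP. It was at 9.58 to 11.13 with BMP (median 9.82), 7.75 to 9.61 with CNTF (median 9.0) and 7.98 to 9.05 in control (median 8.46). All BMP arrays lay above all control arrays, and the difference was 1.51 ± 0.32, or 2.84-fold (limma adjusted p = 0.00677). A second Col6a2 probe set, at 8.13 with BMP and 7.52 in control, differed by 0.61 and was not called (adjusted p = 0.244).

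Col6a1, which neighbours Col6a2 in the genome, was at 9.56 to 11.32 with BMP (median 10.78), 7.90 to 10.48 with CNTF (median 9.60) and 8.51 to 10.11 in control (median 9.21). Its difference of 1.39 ± 0.42 just missed the threshold (limma adjusted p = 0.0584), was positive in 6 of 6 pairs and passed with the replicate block (adjusted p = 0.00376). It also passed without array BMP 1 (0.0361), CNTF 2 (0.0316) or control 5 (0.0441), and under the higher offset, the filter on dim probe sets, array weights and the fit of the BMP and control arrays alone (0.0328 to 0.0468).

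The alternative partner chains were not called without the block. Col6a6 differed by 0.69 ± 0.21 (limma adjusted p = 0.0612, and 0.00771 with the block), and passed without array BMP 4 (0.0176), CNTF 1 (0.0466) or control 1 (0.0472) and without all arrays of number 4 (0.047). Col6a3 and Col6a5 differed by 0.12 ± 0.35 and 0.15 ± 0.27 (adjusted p = 0.914 and 0.844). A second Col6a3 probe set gave 0.73 (adjusted p = 0.0515, and 0.026 with the block), and against CNTF it gave 0.83 and was called (0.0269).

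Type VIII collagen, a short-chain network collagen of vessel walls and of the membrane under corneal endothelium, had both of its chains risen with BMP. Col8a1 was at 8.99 to 11 with BMP (median 10.18), 8.18 to 9.87 with CNTF (median 9.27) and 7.95 to 9.33 in control (median 8.80). The lowest BMP array lay inside the control range and the other 5 above it. The difference was 1.39 ± 0.32, or 2.63-fold (limma adjusted p = 0.0115), and it was lost without all arrays of number 2 (0.0833). Col8a2 was at 9.09 to 13.24 with BMP (median 11.13), 8.67 to 10.55 with CNTF (median 9.62) and 8.53 to 10.14 in control (median 8.94). It differed by 2.15 ± 0.54, or 4.44-fold (adjusted p = 0.0207). This call was lost without array BMP 1 (0.0552) or BMP 2 (0.0511), and without all arrays of number 1 (0.103), 2 (0.107) or 3 (0.0847).

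Among the membrane-bound collagens, Col23a1 was at 9.04 to 10.99 with BMP (median 9.43), 7.31 to 9.15 with CNTF (median 8.52) and 8.12 to 8.88 in control (median 8.46). The BMP and control arrays did not overlap, and the difference was 1.23 ± 0.35 (limma adjusted p = 0.0431). The call was a narrow one: it was lost without array BMP 1, 2 or 3, CNTF 5 or any 1 of the 6 controls (adjusted p 0.0513 to 0.11), without all arrays of number 1, 2, 3, 4 or 5 (0.0578 to 0.147), with the lower offset (0.0716) and after quantile normalization (0.0519). With the block it was 0.000958. Col25a1, the precursor of a protein found in amyloid plaques, differed by 0.86 ± 0.36 from control (adjusted p = 0.186, and 0.037 with the block). Col13a1 and Col17a1, also membrane-bound, differed by 0.05 and -0.03.

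Fibril-associated collagens went both ways with BMP. Col20a1 fell, at low levels. It was at 7.14 to 7.46 with BMP (median 7.20), 7.33 to 8.50 with CNTF (median 7.83) and 7.29 to 8.76 in control (median 8.19). Its difference was -0.85 ± 0.22 (limma adjusted p = 0.0234), between -1.66 and -0.39 with the lower and the higher offset. The call was lost without array control 3 (0.0567) or control 5 (0.0525) and without all arrays of number 2 (0.084), 3 (0.118), 4 (0.0528) or 5 (0.0743). Col9a1 and Col9a3, chains of type IX collagen, which coats cartilage fibrils, gave differences of -0.66 ± 0.38 and -0.62 ± 0.34, both short of the threshold (adjusted p = 0.391 and 0.349). With the block, Col9a1 passed (0.0492) and Col9a3 did not (0.053). Col12a1 differed by 0.68 ± 0.25 (adjusted p = 0.133, and 0.0363 with the block) and Col14a1 by 0.81 ± 0.63 (0.566, and 0.0516 with the block). Col16a1 differed by -0.41 ± 0.22, lower in 6 of 6 pairs (adjusted p = 0.333, and 0.0311 with the block). The remaining collagens, Col7a1, Col9a2, Col10a1, Col19a1, Col22a1 and Col26a1, differed by -0.14 to 0.50, with adjusted p between 0.19 and 0.90.

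**Figure D2:**
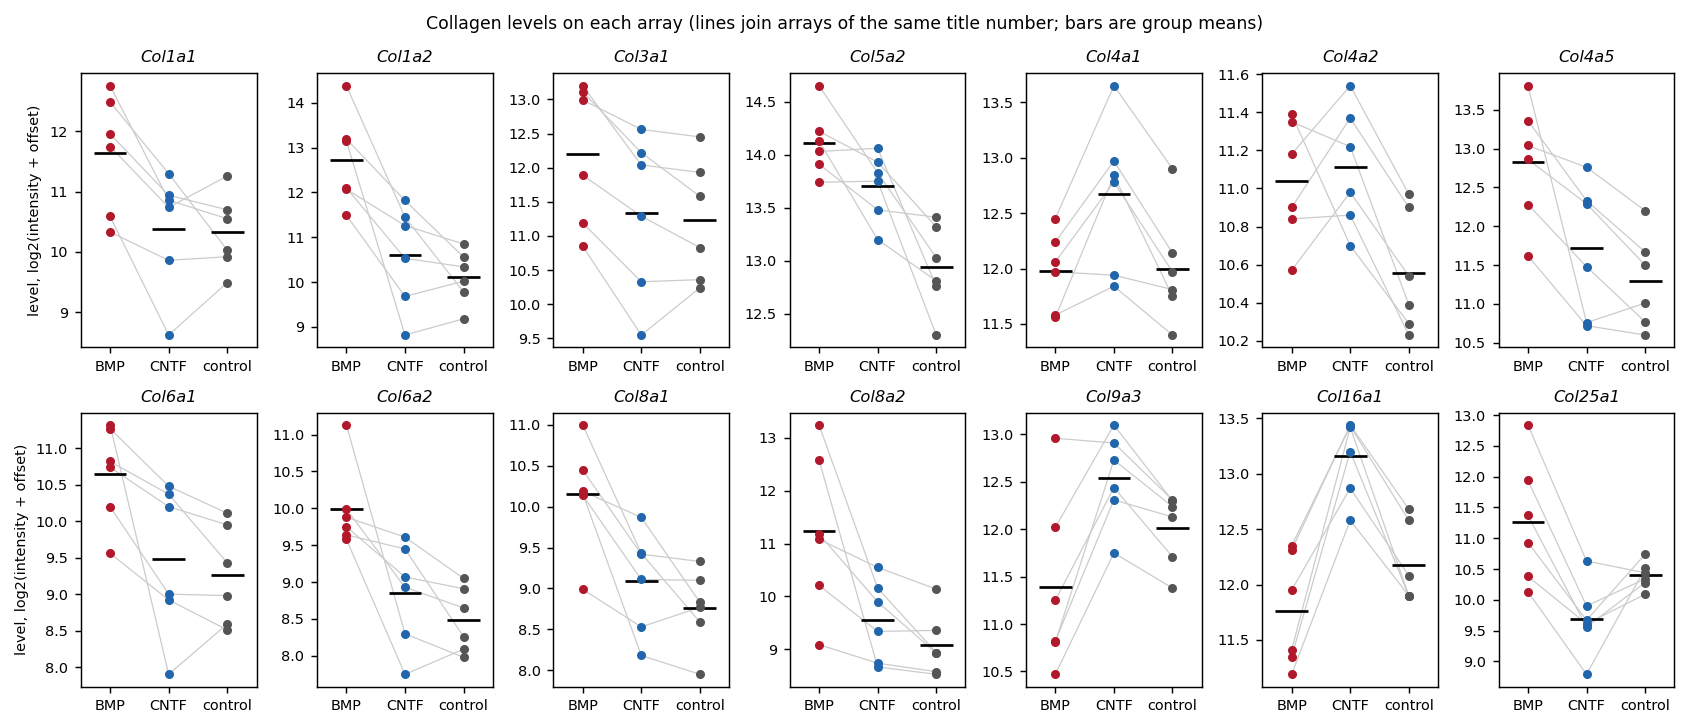
Level of each of 14 collagen genes on every array (vertical axes, log2 of intensity plus the offset), by group in the order BMP, CNTF and control. Points are arrays, grey lines join arrays of the same number and black bars are means of 6 arrays. Col1a2, Col5a2 and Col6a2 have every BMP point above every control point, and Col16a1 has every CNTF point above every BMP point.

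The size of the BMP difference was uneven over the numbers. In the pairs of numbers 1 to 6, Col1a2 differed from control by 3.96, 4.59, 2.63, 1.48, 1.76 and 1.22. Col8a2 differed by 4.06, 4.30, 2.24, 0.51, 0.85 and 0.94. The median over the 41 collagen genes was 0.92, 0.69, 0.39, 0.17, 0.21 and 0.27 in these pairs, against medians over all named genes of -0.008 to 0.019. Col5a2 (1.62, 1.32, 0.50, 1.44, 1.27 and 0.90) did not share that order. What the numbers stand for is not given in the sources used here.

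**Figure D3:**
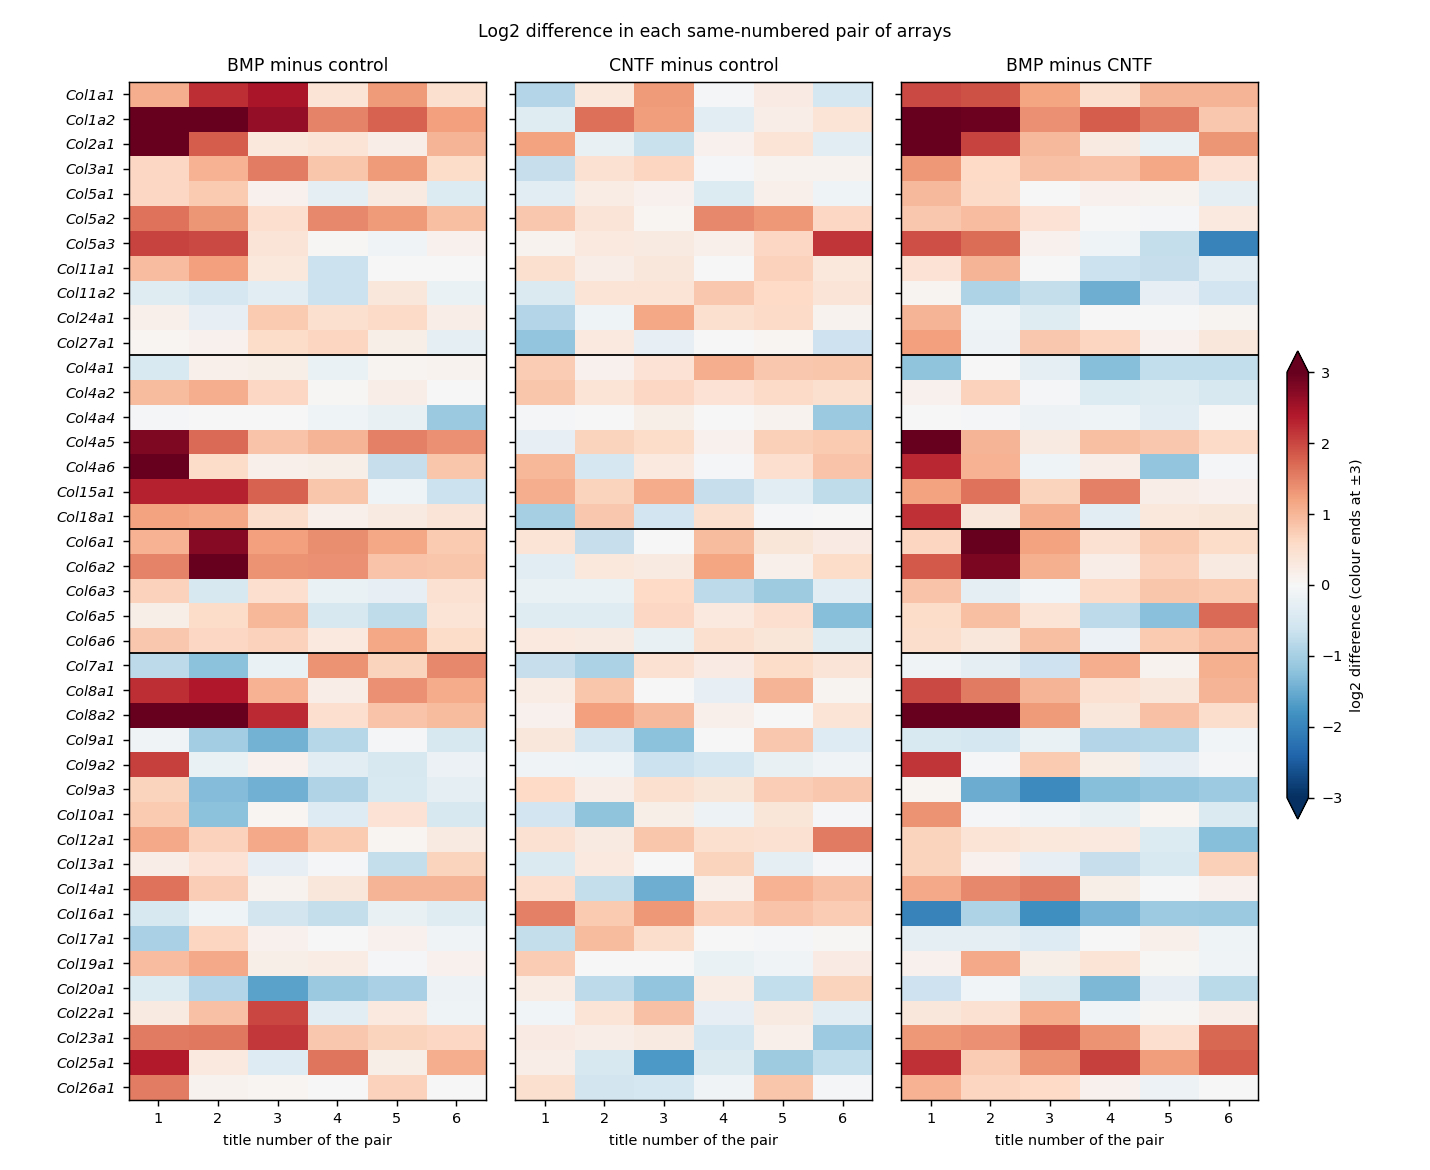
Log2 difference in each same-numbered pair of arrays (columns, numbers 1 to 6) for the 41 collagen genes (rows, by class, separated by black lines), for BMP minus control, CNTF minus control and BMP minus CNTF. Red is higher in the first-named group, blue lower, and the colour ends at 3 log2 units. The BMP columns are reddest in numbers 1 to 3 for Col1a2 and Col8a2, and the Col16a1 row is blue in all 6 pairs of BMP minus CNTF.

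With CNTF, 2 of the 41 collagen genes rose relative to control, Col5a2 and Col16a1, and 0 fell. Before adjustment, limma p-values under 0.05 were found for 5 higher and 0 lower genes. The 2 risen genes are 4.88% of the collagens, beside 2.04% of all named genes called higher and 0.823% called lower. With the replicate block the collagens called higher were 4, the same 2 with Col4a1 and Col4a2, beside 5.44% of named genes, and 0 were called lower, beside 4.06%. In 8 collagen genes CNTF was higher in 6 of 6 pairs, beside 8.86% of named genes. The count of 2 was 1 without array CNTF 1 or 4 or control 2, 4 or 5, and 0 without CNTF 5 or CNTF 6. It was 1 without all arrays of number 3, 4, 5 or 6 and 0 without those of number 1 or 2. The median difference over the 41 genes was 0.12, with 29 above 0. By class it was 0.22 for fibrillar, 0.35 for basement membrane, 0.14 for type VI and 0.05 for other collagens.

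Col16a1, a fibril-associated collagen found with small fibrils and basement membranes, was at 11.19 to 12.35 with BMP (median 11.68), 12.58 to 13.44 with CNTF (median 13.31) and 11.90 to 12.68 in control (median 11.99). The lowest CNTF array lay just inside the control range and the other 5 above it. The CNTF difference was 0.98 ± 0.22, or 1.98-fold (limma adjusted p = 0.0185), with 6 of 6 pairs higher by 0.68 to 1.52. The call was lost without array CNTF 5 (0.0523) or CNTF 6 (0.0502), and without all arrays of number 1 (0.0865), 2 (0.0669) or 3 (0.0927).

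The Col16a1 upstream sequence is shown because this gene was called, without the block, both higher with CNTF than in control and lower with BMP than with CNTF. With the block Col4a1 was as well (adjusted p = 0.00561 and 0.00224). It gives the 250 bases before the annotated start (RefSeq, GRCr8, chr5:147672846-147673095, plus strand), with 2 GC boxes in capitals, the second of them read on the opposite strand. The first begins 183 bases and the second 20 bases before the start.
Col16a1: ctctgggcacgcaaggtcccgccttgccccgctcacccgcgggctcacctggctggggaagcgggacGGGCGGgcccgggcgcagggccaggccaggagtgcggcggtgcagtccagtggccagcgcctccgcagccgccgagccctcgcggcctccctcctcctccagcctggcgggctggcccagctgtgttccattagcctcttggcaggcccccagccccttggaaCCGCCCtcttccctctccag

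Col5a2 differed with CNTF by 0.77 ± 0.18, or 1.71-fold, and was higher in 6 of 6 pairs (limma adjusted p = 0.0279, and 0.00603 with the block). Its second probe set gave 0.68 (0.0219). The call of the brighter set was lost without array CNTF 1, 4, 5 or 6 or control 2, 4 or 5 (0.0505 to 0.0797), and without all arrays of number 1, 2, 4, 5 or 6 (0.0503 to 0.184). The type I chains were not called: Col1a1 differed by 0.06 ± 0.46 and Col1a2 by 0.47 ± 0.50 (adjusted p = 0.987 and 0.848). Col3a1 differed by 0.10 ± 0.54 (0.982), and the signs of Col1a1 and Col3a1 turned when single arrays were left out. No type VI chain was called with limma, and 0 had an unadjusted p under 0.05, the differences running from -0.33 to 0.36.

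Between the factors, 4 collagen genes were higher with BMP than with CNTF and 2 were lower. The higher ones, Col1a2, Col6a2, Col23a1 and Col25a1, are 9.76% of the collagens, beside 3.74% of all named genes. The lower ones were Col16a1 and Col9a3, beside 3.76% of named genes called lower. With the block 11 were higher (these 4 with Col1a1, Col3a1, Col4a5, Col6a1, Col6a6, Col8a1 and Col8a2), beside 9.38%, and 4 lower, beside 8.82%, the lower ones being Col16a1, Col9a3, Col4a1 and Col11a2. In 11 collagen genes BMP was above CNTF in 6 of 6 pairs, beside 10.9% of named genes. The median difference was 0.36 over the 41 genes, and all 5 type VI chains lay above 0 (0.25 to 1.17). The count of 6 without the block was 3 without array BMP 2 or BMP 3, without all arrays of number 2 or 6 and in the fit of the BMP and CNTF arrays alone, and it was 10 without array BMP 4.

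Col16a1 gave the clearest separation, every BMP array lying below every CNTF array (-1.40 ± 0.22, limma adjusted p = 0.000656). Col1a2 differed by 2.14 ± 0.50, or 4.40-fold (adjusted p = 0.012), the BMP array being higher in 6 of 6 pairs. Col25a1 was at 10.13 to 12.84 with BMP (median 11.15) and 8.79 to 10.63 with CNTF (median 9.64), with the controls at 10.09 to 10.74 (median 10.39). It differed between the factors by 1.57 ± 0.36 (adjusted p = 0.0113, and 0.0575 without all arrays of number 6). Its difference between CNTF and control was -0.71 ± 0.36 (adjusted p = 0.484).

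Col9a3 was at 10.47 to 12.96 with BMP (median 11.04), 11.75 to 13.10 with CNTF (median 12.59) and 11.38 to 12.31 in control (median 12.18). BMP and CNTF differed by -1.15 ± 0.34 (limma adjusted p = 0.0464, and 0.00125 with the block), with BMP lower in 5 of 6 pairs. The call was lost without array BMP 2, 3, 4 or 5, CNTF 1, 2, 3, 5 or 6, or control 1, 2, 3, 5 or 6 (0.0535 to 0.114), without all arrays of any number but 1 (0.0552 to 0.197), with no intensity trend (0.0599) and in the fit of the BMP and CNTF arrays alone (0.0958).

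Col6a2 and Col23a1 differed between BMP and CNTF by 1.14 ± 0.32 and 1.35 ± 0.35 (limma adjusted p = 0.0344 and 0.0252). The Col6a2 call was lost without array BMP 2 or 3 or CNTF 1, 2, 3 or 5 (0.0508 to 0.0834), without all arrays of number 1, 2, 3 or 5 (0.0748 to 0.17), with the mean of its probe sets (0.0557) and in the fit of both groups alone (0.0646). The Col23a1 call was lost without array BMP 2 or 3 or CNTF 4 or 6 (0.0602 to 0.068), without all arrays of number 1, 2, 4 or 6 (0.0532 to 0.0733) and in the fit of both groups alone (0.066). Col8a1 and Col8a2 differed by 1.07 ± 0.32 and 1.67 ± 0.54 and missed the threshold (0.0512 and 0.076), and both passed with the block (0.0067 and 0.0193) and without array BMP 4 (0.0101 and 0.0111) or all arrays of number 4 (0.0316 and 0.0324). Col8a1 also passed without CNTF 5 (0.0325) or control 1 (0.0423), under the higher offset, quantile normalization, the filter on dim probe sets, array weights and the mean of probe sets (0.0338 to 0.049), and Col8a2 with array weights (0.049). Without array BMP 4, Col1a1, Col4a5 and Col6a6 passed as well (0.0491, 0.0383 and 0.047).

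Genes that fold, trim and cross-link collagen were read from the same fits. Of 28 measured genes of a list of 40, 5 rose and 1 fell with BMP, beside the 4.21% higher and 3.02% lower of all named genes, with a median difference of 0.23. With the block 8 were higher and 1 lower, beside 10.7% and 9.28%, the added ones being Fkbp14, Pcolce and Lox (adjusted p = 0.0192, 0.0136 and 0.0241). Sparc, a secreted collagen-binding glycoprotein, was at 14.20 to 14.81 with BMP (median 14.69), 13.09 to 14.06 with CNTF (median 13.64) and 12.54 to 13.70 in control (median 13.52). Its BMP arrays lay above all others, by 1.22 ± 0.18 over control and 0.99 ± 0.18 over CNTF (limma adjusted p = 0.00082 and 0.00245). Bmp1, the protease that removes the C-terminal propeptide of fibrillar procollagens, rose by 0.57 ± 0.12 (0.00664).

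The collagen chaperone Serpinh1 (Hsp47) rose with BMP by 0.70 ± 0.18, the prolyl isomerase Fkbp10 by 1.02 ± 0.27 and the lysyl oxidase family member Loxl1 by 1.36 ± 0.37 (limma adjusted p = 0.0231, 0.0296 and 0.0339). These 3 calls depended on single arrays. Serpinh1 was lost without array BMP 1 or 2 or control 2 or 3 (0.0544 to 0.0592), without number 1, 2 or 3 (0.0845 to 0.134), with the mean of its probe sets (0.28, adjusted p = 0.148) and in the fit of BMP and control alone (0.0522). Fkbp10 was lost without array BMP 1 or 6 or control 1, 2 or 3 (0.0556 to 0.077) and without number 1, 2, 3, 4 or 6 (0.051 to 0.138). Loxl1 was lost without array BMP 1, 2, 3 or 6 or control 1, 2, 3 or 4 (0.0503 to 0.0925), without number 1, 2 or 3 (0.109 to 0.16) and in the fit of BMP and control alone (0.072). The count of 6 called processing genes was 3 without array BMP 1 or control 2 or 3, and without number 1, 2 or 3.

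Colgalt2, one of the galactosyltransferases that glycosylate hydroxylysine of collagen, fell to 10.02 to 12.08 with BMP (median 10.91), against 12.07 to 12.96 in control (median 12.48), so that the groups only touched. The difference was -1.52 ± 0.27 (limma adjusted p = 0.00235), and against CNTF it was also -1.52 ± 0.27 (0.00202). The prolyl and lysyl hydroxylases P4ha1, P4ha2, P4ha3, P4hb, Plod1, Plod2 and Plod3 were not called in either comparison with control. With CNTF, limma called 0 of the 28 processing genes (2 higher and 0 lower before adjustment, 1 called without control 6, and with the block 1, the procollagen C-proteinase enhancer Pcolce, adjusted p = 0.0165). Between BMP and CNTF, 2 of the 28 were higher, Sparc and Fkbp10, and 1 lower, Colgalt2, beside 3.74% and 3.76% of named genes. With the block 6 were higher, adding Bmp1, Plod1, Fkbp14 and Loxl3 (limma adjusted p = 0.00953, 0.0383, 0.0196 and 0.0363, and 0.0778, 0.522, 0.152 and 0.113 without it). The Fkbp10 difference of 0.94 ± 0.27 (0.044) was lost without BMP 1, 4, 5 or 6, CNTF 1, 2, 3 or 4 or control 1 (0.0525 to 0.104), without any number (0.064 to 0.152), after quantile normalization (0.0527) and with no intensity trend (0.0551).

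Of 6 measured collagen receptors 1 rose with BMP, beside 4.21% of all named genes called higher (10.7% with the block). This was Ddr2, a receptor tyrosine kinase for fibrillar collagen. It was at 8.95 to 11.54 with BMP (median 10.07), 8.24 to 9.34 with CNTF (median 8.56) and 8.29 to 9.05 in control (median 8.55). The differences were 1.60 ± 0.34 against control and 1.48 ± 0.34 against CNTF (limma adjusted p = 0.00681 and 0.0105, the second 0.0523 without number 1). Of the other 5 receptors 1, Ddr1, passed with the block (0.32 ± 0.15, adjusted p = 0.25 without it and 0.0181 with it), and with CNTF limma called 0 of 6 (0 at an unadjusted p under 0.05).

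Of 12 genes of collagen degradation and its inhibitors, 2 rose with BMP and 0 fell, beside 4.21% and 3.02% of all named genes. With CNTF 1 rose and 1 fell, beside 2.04% and 0.823%. With the block 3 were higher and 2 lower with BMP, beside 10.7% and 9.28%, and 2 were higher and 2 lower with CNTF, beside 5.44% and 4.06%. The lower ones were Timp3 and the membrane-type protease Mmp15 with either factor. With BMP they differed by -0.62 ± 0.25 and -0.75 ± 0.28 (limma adjusted p = 0.175 and 0.134, and 0.0029 and 0.00526 with the block), and with CNTF Mmp15 differed by -0.67 ± 0.28 (0.341, and 0.0213 with the block). Mmp14, a membrane-anchored collagenase, rose with BMP by 0.90 ± 0.14 over control, with no overlap of the arrays, and by 0.60 ± 0.14 over CNTF (limma adjusted p = 0.00104 and 0.012, the second 0.0622 without number 2). Timp2, an inhibitor of these proteases, rose by 0.75 ± 0.19 (0.0212). That call was lost without array BMP 1, 2 or 3 (0.0543 to 0.0565) or number 1, 2 or 3 (0.0709 to 0.131), which left 1 called gene. Timp1, the inducible inhibitor, was at 14.53 to 15.37 with CNTF (median 15.22) against 11.73 to 14.31 in control (median 12.46), with no overlap, a difference of 2.33 ± 0.38 or 5.04-fold (0.00142). With BMP, Timp1 differed from control by 1.15 ± 0.38 (0.0813, and 0.00955 with the block), and BMP and CNTF differed by -1.18 ± 0.38 (0.0732, and 0.00809 with the block). Timp3, the matrix-bound inhibitor, fell with CNTF by 1.04 on the log2 scale (SE 0.25, adjusted p = 0.031). It was lost without CNTF 3, 4 or 5 or control 1, 2 or 6 (0.0728 to 0.0869), without number 2, 3, 4, 5 or 6 (0.0534 to 0.141), in the fit of CNTF and control alone (0.0765) and with the mean of its probe sets (0.269).

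**Figure D4:**
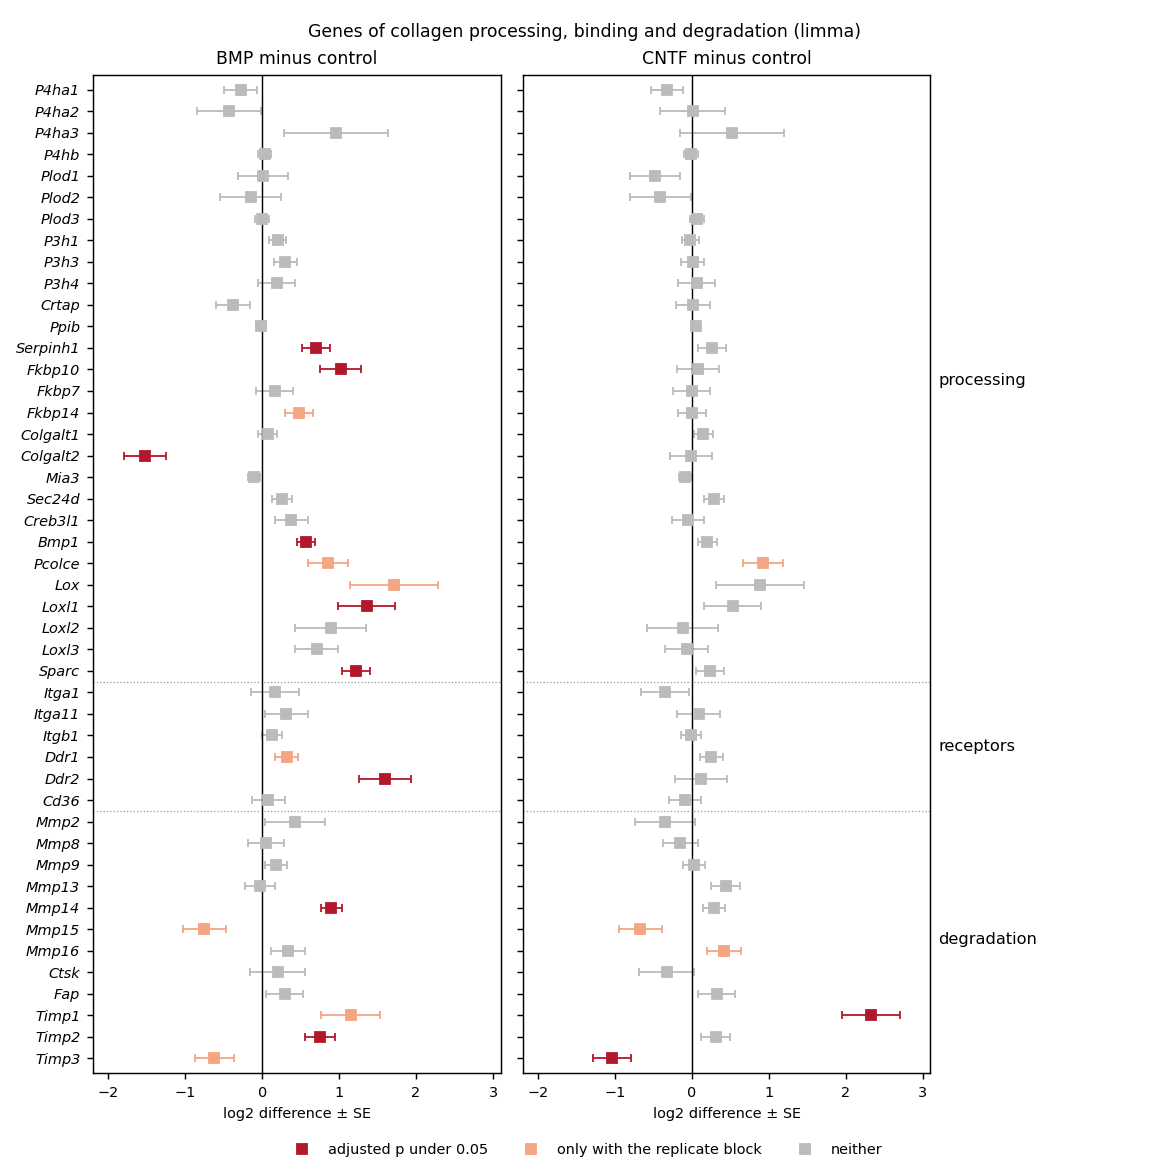
Log2 difference with its standard error (horizontal axes) for the measured genes of collagen processing, collagen receptors and collagen degradation (vertical axis), BMP minus control on the left and CNTF minus control on the right, 6 arrays a group. Dark red marks an adjusted p under 0.05, light red one under 0.05 with the replicate block alone, grey neither. Sparc and Ddr2 stand to the right with BMP and Timp1 with CNTF, while Colgalt2 stands at -1.52 with BMP.

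Markers of the cells that could carry collagen RNA were read beside these results. In bulk samples fewer cells of a type and less RNA per cell cannot be told apart. The marker counts below stand beside 4.21% of all named genes called higher and 3.02% lower with BMP. With CNTF these shares were 2.04% and 0.823%. With the block they were 10.7% and 9.28% with BMP, and 5.44% and 4.06% with CNTF. Of 15 fibroblast and meningeal markers, 1 had a mean at or above the table's median, S100a4. The summed intensity of the list was 4255 to 8173 with BMP, 4062 to 8038 with CNTF and 1940 to 4402 in control. Such a sum is weighted toward the brightest genes, and the median difference of the list was 0.29 with BMP and 0.02 with CNTF. Of the markers named in advance, Dcn was at 7.96 ± 0.58 with BMP, 8.08 ± 0.69 with CNTF and 7.65 ± 0.52 in control. Pdgfrb was at 9.07 ± 0.67, 8.36 ± 0.42 and 8.81 ± 0.84 in the same order (SD, n = 6 each for both genes). Neither was called. With BMP 1 of the 15 was called, S100a4 (1.28 ± 0.31, limma adjusted p = 0.0173), and it was also the 1 called with CNTF (2.01 ± 0.31, 0.00086). With the block the counts were 3 with BMP and 2 with CNTF. The BMP count was 2 without array BMP 4 or CNTF 1 and 0 without number 2 or 4.

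Of 12 smooth muscle and pericyte markers, 5 were at or above the table's median. The sum of the 12 was 10253 to 61102 with BMP, 9366 to 27151 with CNTF and 5926 to 11157 in control. Their median difference was 0.21 with BMP and 0.40 with CNTF. Acta2, smooth muscle actin, was at 11.30 ± 1.11 with BMP, 10.50 ± 0.55 with CNTF and 10.16 ± 0.61 in control (SD, n = 6 each) and was not called without the block (1.13 ± 0.41 for BMP, limma adjusted p = 0.121, and 0.0371 with it). The 1 called gene, with either factor, was Mylk (2.58 ± 0.52 for BMP and 2.48 ± 0.52 for CNTF, adjusted p = 0.00544 and 0.0121). With the block 3 were called with BMP and 2 with CNTF. The BMP count was 2 without BMP 6, CNTF 1 or control 4, and the CNTF count was 2 without control 2 and 0 without number 2, 3 or 5. The table's median was reached by 0 of 9 endothelial and 0 of 8 microglia markers, and Pecam1 and Aif1 were at 7.33 and 8.28 with BMP and 7.29 and 8.23 in control. The endothelial receptor Tek rose with BMP by 0.95 ± 0.26, at 8.46 against 7.51 in control (limma adjusted p = 0.036), in 6 of 6 pairs. This 1 call of the 9 was lost without array BMP 1, 2 or 3, any control but 5, or number 1, 2 or 3. The part of these cells in the collagen differences was not tested.

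Oligodendrocyte lineage markers moved the opposite way, 6 of 9 fallen with BMP and 0 risen, beside 3.02% of named genes called lower, with a summed intensity of 23268 to 139005 with BMP, 134176 to 239880 with CNTF and 146316 to 240002 in control. Pdgfra, the PDGF receptor of oligodendrocyte precursors, differed with BMP by -1.80 ± 0.31 (limma adjusted p = 0.00162), and Mbp by -2.25 ± 0.71 (0.0679, and 0.000533 with the block). Of 10 astrocyte markers 9 were at or above the table's median, with a sum of 171038 to 290113 with BMP, 223875 to 343785 with CNTF and 162385 to 250179 in control, and Gfap was at 14.69 ± 0.78, 16.32 ± 0.27 and 12.36 ± 2.51 (SD, n = 6 each). Astrocyte markers did not move as 1 list: the median difference with BMP was -0.02. The water channel Aqp4 was the 1 called with BMP (2.33 ± 0.62, limma adjusted p = 0.0295), Gfap passed with the block alone (2.33 ± 0.78, 0.0867 and 0.0169), and Aldh1l1 and Acsbg1 differed by -0.96 ± 0.43 and -0.58 ± 0.38 (0.232 and 0.474). With CNTF Gfap rose by 3.96 ± 0.78 (0.00708) and Acsbg1 fell by 1.60 on the log2 scale (0.0279). The BMP count of 1 was 0 without array BMP 2, 3, 5 or 6, control 1 or 4 or number 2, 3, 4 or 5, and 2 without control 5 or 6. The CNTF count of 2 was 1 without CNTF 4 or 5, control 2, 4 or 6 or number 4, 5 or 6, and 0 without number 2 or 3.

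Neuron markers were at or above the table's median in 7 of 10, so markers of the labelled neural tissue were present. Their median difference with BMP was 0.57, beside the 0.49 of the collagens, and their sum was 83337 to 133752 with BMP, 107990 to 132913 with CNTF and 103840 to 117115 in control. With BMP 2 rose, Nefl (0.95 ± 0.15) and Stmn2 (1.17 ± 0.34, limma adjusted p = 0.00125 and 0.048), and with the block 6 were higher and 1 lower. The count of 2 was 1 without array BMP 2 or 3, CNTF 2 or 5, control 1, 2, 4 or 6, or number 1, 2 or 5. Of 8 Schwann cell markers 1 was at or above it, Sox10, which the oligodendrocyte lineage also expresses, and it fell with BMP (-2.13 ± 0.43, limma adjusted p = 0.00498). The list's sum was 2867 to 9680 with BMP, 9079 to 17545 with CNTF and 7112 to 16800 in control, while its median difference with BMP was 0.29. With CNTF Pmp2 rose by 1.29 ± 0.30 (0.0266), a call lost without CNTF 3, 4, 5 or 6, control 3, 4 or 5, or any number but 1. The part of these shifts in the collagen differences was not tested. Of 10 listed matrix genes known to respond to TGF-beta or BMP, 7 were measured, and Postn, Fn1, Tgfbi, Ccn2 and Eln rose with BMP. This count of 5, beside 4.21% of all named genes called higher, was 3 without number 3. The list was chosen with earlier results of these data known, so its share cannot be read as independent of the data. With CNTF 1 of the 7 rose, beside 2.04%, and 3 were higher with BMP than with CNTF, beside 3.74%.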

How the data were processed

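RNA of 18 rat spinal cord samples had been hybridised to single-channel Affymetrix arrays. The values deposited by the authors are linear intensity values per probe set. The sources used here state neither the summary method nor the scaling. Trimmed mean intensity was 2500.7 to 2500.8 on every deposited array. Gene names came from the platform annotation, and all 41 collagen genes matched RefSeq by gene ID.

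From the 31099 probe sets, 57 control sets were left out. The rest were taken to log2(intensity + 116.655), the 20th percentile of the deposited table, and modelled over 18 arrays and 3 groups with lmFit and eBayes (intensity trend) of limma 3.58.1 under R 4.3.3. P-values were two-sided and adjusted over 31042 probe sets by Benjamini-Hochberg. No filter on dim values was applied in the main fit. As an alternative it kept 24 of 41 collagen genes.

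Same-numbered arrays were checked for pairing before fits were compared. Deviations from group means correlated in all 18 pairs, at r = 0.12 to 0.49, and 18 of 18 arrays correlated best with their own number. The fit was tested on simulated data. Values per array were given for 14 collagen genes, those called whose highest group mean reached the table's median and those always named (Col1a1, Col1a2, Col3a1, Col4a1, Col4a2, Col6a1 and Col6a2), and for up to 6 called genes per other list. Values of Col20a1 and Col23a1, and the matrix and marker genes outside the fixed set, were added after their values were seen. The collagen genes and all lists were chosen with earlier results of these data known. The number of arrays limits the precision.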

Additional observations from a re-analysis of the deposited data

Results flagged for a closer look

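In each group of 6 arrays, the highest or lowest array was compared with the rest for each of the 41 collagen genes, 123 groups in all, of which 7 held 1 array whose gap to its nearest neighbour exceeded the critical share of the group's range (Dixon's 95% limit). Chance flags about 1 in 20 groups, so 7 of 123 is near that rate. With BMP, Col6a2 was at 11.13 on array 2, against 9.58 to 9.99 on the other 5, Col22a1 at 10.25 on array 3, against 8.28 to 8.86, Col26a1 at 11.09 on array 1, against 8.70 to 9.44, and Col11a2 at 7.21 on array 4, against 8.13 to 8.62. With CNTF, Col14a1 was at 7.98 on array 4, against 9.90 to 10.59, and Col26a1 at 10.04 on array 1, against 8.49 to 8.97. In control, Col4a4 was at 8.08 on array 6, against 6.97 to 7.19. Of these genes Col6a2 was called in a comparison. Without array BMP 2 its difference from control stayed called, and the one from CNTF was lost, at 0.92 (limma adjusted p = 0.0834).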

How the results depend on the processing

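With the replicate block, the collagen genes called numbered 19 for BMP against control, 4 for CNTF against control and 15 for BMP against CNTF, beside 8, 2 and 6 without it. All 8, 2 and 6 genes were among them. The fit of the BMP and CNTF arrays alone called 3 in their comparison. With 1 array or all arrays of 1 number left out, the counts ranged from 3 to 10 for BMP against control, 0 to 2 for CNTF against control and 3 to 10 for BMP against CNTF. Leaving out all arrays of a number was chosen after seeing the data. Other settings kept every count within 1.5 times. Signs turned only for differences close to 0 among the 14 genes shown by array. Col4a1 with BMP against control was 0.00 with array weights, 0.09 with the mean of its probe sets and -0.14 to 0.16 with arrays left out. Col1a1 and Col3a1 with CNTF against control ran from -0.18 to 0.42 and -0.15 to 0.45, and Col4a2 with BMP against CNTF from -0.23 to 0.02. Lost and gained calls were tallied for the 14 genes shown by array, Col20a1, Col23a1 and the called processing, receptor and degradation genes. The marker genes and the other collagens were not in this tally. In it, 85 values with 1 array left out, 66 with 1 number left out and 14 under other settings lost a call. Calls gained numbered 10, 2 and 25. The array count, the missing control time and the unnamed cell type limit every comparison. Dim collagens, 21 of 41 below the table's median in every group, have differences that depend on the offset. Probe sets of 1 gene differed in their call for Col1a1, Col5a1, Col15a1 and Col6a2 with BMP against control, and for Col6a2 and Col6a3 with BMP against CNTF.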
